A study of Mus musculus with 16 samples.

Results

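The interaction of genotype and virus asks whether the striatum of BACHD mice answered a Foxp2 virus differently from the striatum of control mice. It was computed for each gene as the log2 change with the Foxp2 virus in BACHD mice minus the log2 change in control mice, from all 16 libraries of the series, 4 mice in each of 4 groups. Con+Con are control mice given a control virus, Con+Foxp2 are control mice given the Foxp2 virus, BACHD+Con are BACHD mice given the control virus, and BACHD+Foxp2 are BACHD mice given the Foxp2 virus. All mice were 13 months old at harvest and all had been injected with a virus, so none of the groups is uninjected. BACHD mice carry a mutant human huntingtin gene on a bacterial artificial chromosome and are used as a model of Huntington disease. Neither the labels nor the files state the promoter and type of the viruses, the time after injection or the species of the delivered Foxp2. A positive interaction means that the value moved further up, or less far down, in BACHD mice, and a negative interaction means the opposite. The same number is also the BACHD against control difference under the Foxp2 virus minus that difference under the control virus.

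FOXP2 is a forkhead transcription factor that binds DNA as a dimer with itself or its relatives FOXP1 and FOXP4 and is best known as a repressor. In the brain it is expressed in striatal projection neurons, among other cells, and its loss in people impairs speech. Huntingtin is a large scaffold protein. Its expanded form harms striatal projection neurons first, and mouse models show a gradual fall of the genes that define these neurons.

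Libraries held 2660395 to 3669748 reads assigned to genes, and 13563 of 24421 listed genes passed the filter on low counts and were tested. Levels are given in CPM, read counts scaled to library size, and 3 reads in 1 library, the floor used here, corresponded to 0.819 to 1.16 CPM. All 20 markers of striatal projection neurons were measured, and their summed level was 8744 to 15473 CPM. Markers of neighbouring tissue varied more: the 16 cortical markers summed to 769.6 (BACHD+Con mouse 2) to 2987 CPM (Con+Con mouse 3), and the 12 choroid plexus and ependymal markers to 417.6 to 14064 CPM (BACHD+Con mouse 2). The 3 libraries lowest in cortical markers were BACHD+Con mice 2 and 3 and Con+Con mouse 4, all given the control virus.

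No gene passed the test of the interaction: the quasi-likelihood test of edgeR, adjusted by Benjamini-Hochberg, called 0 of 13563 genes (0%) at an adjusted p under 0.05. The lowest adjusted p was 0.077, for Foxp2 itself, and the next lowest was 0.362. Before adjustment, 516 genes (3.8%) had a p under 0.05, where 678 would be expected by chance. Of the 516, 237 had a positive interaction (1.75%) and 279 a negative one (2.06%). DESeq2 gave 549 genes an unadjusted p under 0.05 (4.05%). It called 4 genes (0.0295%), all with a negative interaction: Foxp2, Pax7, Col23a1 and Cdh4. All 4 rose with the virus in control mice, and the fitted log2 change was lower in BACHD mice. For Pax7 the fitted change in BACHD mice was a fall, from 5 reads under the control virus to 0. The voom method of limma called 0 (527 at an unadjusted p under 0.05, 3.89%). The median interaction over all genes was 0.01 on the log2 scale, and 51.3% of genes were above 0.

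The precision of the interaction depended on the level of the gene. For the 7716 genes between 10 and 100 CPM, the 95% interval reached a median of 0.69 to each side on the log2 scale, a 1.62-fold difference between the responses. It was 0.37, or 1.30-fold, for the 2344 genes above 100 CPM, and 1.71, or 3.27-fold, for the 3503 genes below 10 CPM. The standard error of the interaction was larger than that of each response it is made of: at 10 to 100 CPM its median was 0.335, against 0.236 for the virus effect in control mice and 0.238 in BACHD mice. Absence of a call therefore does not show that both genotypes responded alike.

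Foxp2, on chromosome 6 (14901349 to 15441977, GRCm38, plus strand), is the delivered gene, and its level checks the labels. In the Con+Con mice it was at 98.5, 150, 93.2 and 130 CPM, and in the Con+Foxp2 mice it was 3819, 4389, 4350 and 3500 CPM. In the BACHD+Con mice it was 87.3, 129, 153 and 105 CPM, and in the BACHD+Foxp2 mice 1729, 1291, 1431 and 1929 CPM. Every mouse given the Foxp2 virus lay far above every mouse given the control virus, and every BACHD+Foxp2 mouse lay below every Con+Foxp2 mouse. The rise was 34.1-fold in control and 13.4-fold in BACHD mice, and the interaction was -1.34 (SE 0.23, 95% interval -1.81 to -0.87, adjusted p = 0.077). Across the 29 alternative settings that keep it, Foxp2 was called in 6, with an adjusted p from 6.6e-05 to 0.538. The 2 genotypes were thus compared at different levels of Foxp2, and for every gene below the genotype and the Foxp2 level cannot be told apart. Foxp1 and Foxp4, which pair with FOXP2, had interactions of -0.10 (95% interval -0.53 to 0.33) and 0.12 (-0.53 to 0.78).

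Col23a1 encodes a membrane-spanning collagen, and it had the lowest p after Foxp2. It lies on chromosome 11 (51289920 to 51583918, plus strand). Con+Con mice had 7.08, 13.2, 18 and 2.6 CPM, and Con+Foxp2 mice had 127, 124, 155 and 96.6 CPM. BACHD+Con mice had 6.19, 8.26, 8.06 and 11.2 CPM, and BACHD+Foxp2 mice had 23.4, 24.2, 18.2 and 20.1 CPM. The mice given the Foxp2 virus lay above those given the control virus in both genotypes, but by much less in BACHD mice. The response was 12.2-fold in control mice (adjusted p = 4.17e-07) and 2.56-fold in BACHD mice (adjusted p = 0.118), and the interaction was -2.25 (SE 0.45, 95% interval -3.19 to -1.31, adjusted p = 0.362).

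Pax7, a paired-box transcription factor of muscle stem cells and midbrain, had reads in Con+Foxp2 mice and almost none elsewhere. It was counted 111 times over the 4 Con+Foxp2 mice (7.41, 13.7, 8.29 and 5.73 CPM), 5 times in BACHD+Con, and 0 times in Con+Con and in BACHD+Foxp2. All 4 Con+Foxp2 mice were above the highest mouse of any other group. With 2 groups at 0 reads, the fitted size of the interaction is not a bound and is not given here (edgeR adjusted p = 0.362; DESeq2 adjusted p = 0.000916). Foxf1, a forkhead factor of the embryonic mesenchyme, was at 27, 16.7, 18.9 and 13.7 CPM in Con+Foxp2 mice and at 0.366, 0.982, 2.75 and 3.51 CPM in BACHD+Foxp2 mice. These groups did not overlap. The control-virus groups had 12 and 3 reads in all, and the interaction was imprecise, at -1.54 (-4.65 to 1.57).

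Promoters of 3 genes with a negative interaction are shown beside that of Rab3b, which rose with the virus in both genotypes, so that their letters can be compared. Each window holds the 250 bases before the RefSeq start of the gene, on GRCm38.p6 and in the direction of transcription: chr11:51289670-51289919 (plus strand) for Col23a1, chr4:139832969-139833218 (minus) for Pax7, chr4:45184656-45184905 (plus) for Frmpd1 and chr4:108878820-108879069 (plus) for Rab3b. A total of 4 forkhead motifs were searched on both strands, and any match would be in capitals: the motif TGTTTAC itself, its form with a final T (TGTTTAT), its form with A as the second base (TATTTAC), and the form with both (TATTTAT). A site is counted for 1 of these forms at most, since they have the same length and differ in letters.
Col23a1: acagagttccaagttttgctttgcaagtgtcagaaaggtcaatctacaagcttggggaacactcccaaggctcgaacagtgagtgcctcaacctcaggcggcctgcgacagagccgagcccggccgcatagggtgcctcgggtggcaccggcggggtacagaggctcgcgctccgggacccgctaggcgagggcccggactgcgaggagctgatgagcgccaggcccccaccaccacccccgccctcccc
Pax7: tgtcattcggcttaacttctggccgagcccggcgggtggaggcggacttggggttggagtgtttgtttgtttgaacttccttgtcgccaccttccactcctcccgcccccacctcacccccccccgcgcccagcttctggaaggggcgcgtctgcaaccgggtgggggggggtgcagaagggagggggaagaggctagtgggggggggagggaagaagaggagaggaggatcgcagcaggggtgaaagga
Frmpd1: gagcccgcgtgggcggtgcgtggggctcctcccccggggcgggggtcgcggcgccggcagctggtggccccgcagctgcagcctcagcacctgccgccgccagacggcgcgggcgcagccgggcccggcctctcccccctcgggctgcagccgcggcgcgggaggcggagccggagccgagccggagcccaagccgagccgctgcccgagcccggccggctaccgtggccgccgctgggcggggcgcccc
Rab3b: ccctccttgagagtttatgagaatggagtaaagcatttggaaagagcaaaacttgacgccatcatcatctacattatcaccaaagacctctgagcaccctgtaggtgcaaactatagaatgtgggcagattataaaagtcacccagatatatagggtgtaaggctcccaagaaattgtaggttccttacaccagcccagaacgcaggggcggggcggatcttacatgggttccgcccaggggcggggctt
None of the 4 windows held a match. The Pax7 window lay wholly within the GENCODE span of the gene (139737062 to 139833528), and the windows of Frmpd1 and Rab3b ended inside theirs. Of the 10 genes with the lowest p among negative interactions, 8 had an entry in the promoter table, and 2 of these held a match, A230072C01Rik and Clpp. For both, the bases at the RefSeq start were not found near the start of a GENCODE transcript. The same was so for Elfn1, which held no match. Of the 10 genes other than Foxp2 that were called for the virus in both genotypes, 9 had an entry and 0 held a match. Of all 32851 promoter windows of this length, 13.6% held one. This share is per window, and some of the genes counted have several windows. A match is a description of the letters only, and no match says only that these letters are not in the window.

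A further 3 genes rose with the virus in control mice and had much the same mean under both viruses in BACHD mice. Cdh4 encodes R-cadherin, a calcium-dependent adhesion molecule of developing neurons. It was at 17.1, 24.5, 19.3 and 20.5 CPM in Con+Con and at 67.3, 64.8, 59.3 and 53.8 CPM in Con+Foxp2 mice. In BACHD mice it was at 19.6, 19.8, 30.9 and 16.6 CPM under the control virus and at 20.9, 34.4, 15.5 and 17.2 CPM under the Foxp2 virus. The control groups did not overlap and the BACHD groups did. The interaction was -1.58 (95% interval -2.28 to -0.87, adjusted p = 0.386).

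Frmpd1, a scaffold protein that binds regulators of G protein signalling, rose from 24 ± 9.29 to 70.2 ± 8.85 CPM (SD, n = 4) in control mice and stood at 17.9 ± 2.75 and 20.6 ± 3.41 CPM in BACHD mice. Its interaction was -1.35 (-2.04 to -0.66, adjusted p = 0.809). Elfn1, a synaptic adhesion protein of interneurons, rose from 27.7 ± 7.54 to 70.7 ± 23.9 CPM in control mice and stood at 26.9 ± 3.16 and 26.8 ± 5.58 CPM in BACHD mice (interaction -1.35, -2.03 to -0.67, adjusted p = 0.809). Mouse 2 of Con+Foxp2 was at 106 CPM for Elfn1, and the other 3 were at 56.7 to 61 CPM. For both genes all Con+Foxp2 mice lay above all mice of the other 3 groups.

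**Figure D1:**
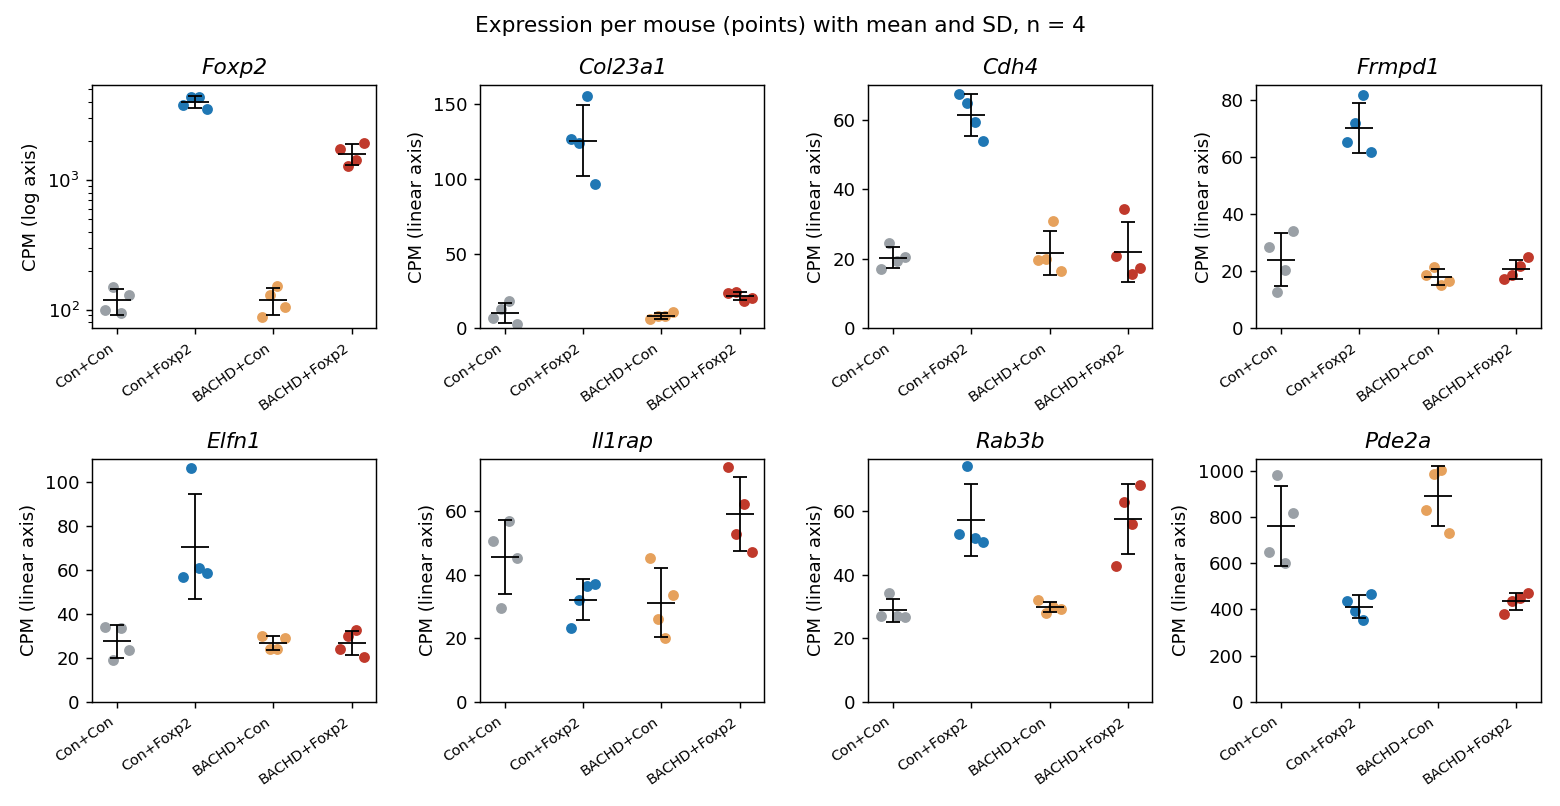
CPM of 8 genes in each of the 16 mice by group, with the mean and SD (n = 4) in black. The Foxp2 axis is logarithmic and the others are linear from 0. For Col23a1, Cdh4, Frmpd1 and Elfn1 the Con+Foxp2 mice stand above all others, while Rab3b is higher and Pde2a lower under the Foxp2 virus in both genotypes and Il1rap lies highest in BACHD+Foxp2.

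The other genes of lowest p with a negative interaction showed a different pattern, in which the mean under the Foxp2 virus was the higher one in control mice and the lower one in BACHD mice. Clpp, the protease subunit of the mitochondrial matrix, was at 25.1 and 32.3 CPM in Con+Con and Con+Foxp2 and at 37.3 and 21.7 CPM in BACHD+Con and BACHD+Foxp2 (interaction -1.15, -1.74 to -0.56, adjusted p = 0.809). Pqbp1, a polyglutamine-binding protein of splicing, was at 52.7, 67.5, 64.6 and 47.1 CPM in the same order (interaction -0.81, -1.24 to -0.38, adjusted p = 0.992). Its BACHD groups did not overlap, and its control groups did through Con+Foxp2 mouse 2, at 51 CPM. A230072C01Rik, a noncoding transcript, was at 2.02, 8.26, 7.3 and 2.87 CPM (interaction -3.36, -5.03 to -1.69), and Cenpq, a kinetochore protein, at 2.97, 8.17, 6.66 and 2.6 CPM (interaction -2.78, -4.36 to -1.21). For these 4 genes neither virus effect passed the test. They were chosen for a low interaction p, which without a virus call favours opposite changes. Nothing is read from their pattern. Exons of A230072C01Rik and Cenpq overlap those of Uxt and Mut on the opposite strand, so their counts are uncertain.

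Among the 10 genes of lowest p with a positive interaction, none was called for the virus in either genotype, and none passed the test of the interaction (adjusted p from 0.809 to 1). Il1rap, the shared accessory chain of interleukin-1 family receptors, was at 50.7, 29.6, 56.9 and 45.4 CPM in Con+Con mice and at 23.2, 32.1, 36.5 and 37.1 CPM in Con+Foxp2 mice. In BACHD mice it was at 45.4, 26.1, 20.1 and 33.5 CPM under the control virus and at 73.9, 53, 62.3 and 47.2 CPM under the Foxp2 virus. The BACHD groups did not overlap and the control groups did, and the interaction was 1.42 (95% interval 0.72 to 2.12, adjusted p = 0.809). An antisense transcript, Gm20319, overlaps its exons, and no source used here says whether strand was used in counting. St18, a zinc finger factor, was at 50.5 and 30.2 CPM in control mice without overlap and at 39.3 and 46.4 CPM in BACHD mice (interaction 0.98, 0.42 to 1.53).

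The remaining 8 had the same form, with a lower mean under the Foxp2 virus in control mice and a higher one in BACHD mice. All 10 were chosen for a low interaction p, which without a virus call favours opposite changes. Nothing is read from this form. Dnajc11, a mitochondrial inner membrane organiser, was at 72.2 and 53.3 CPM in control and at 58.9 and 78.4 CPM in BACHD mice (interaction 0.85, 0.35 to 1.35). Pacsin2, a membrane-bending protein of endocytosis, was at 79.2 and 46.8 CPM in control and at 57.6 and 62 CPM in BACHD mice (0.86, 0.33 to 1.40). Pcmtd1 had the narrowest interval of the 10, with an interaction of 0.60 (0.25 to 0.95) on means of 197, 147, 158 and 179 CPM. The others were Prrg4 (47, 5, 21 and 36 reads per group), D16Ertd472e (1.34, 0.54 to 2.13), Ccdc25 (0.90, 0.35 to 1.44), Frmd5 (0.75, 0.29 to 1.22) and Zfp180 (0.65, 0.24 to 1.06).

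The genes that changed with the virus in each genotype were then read for their interaction. The 2 virus comparisons share no library, but each shares its libraries with the interaction, so interaction values of genes chosen by a virus call are a description. In control mice 31 genes (0.229%) were called, 19 higher (0.14%) and 12 lower (0.0885%). In BACHD mice 33 (0.243%) were called, 12 higher (0.0885%) and 21 lower (0.155%). Called in both were 11 genes (0.0811% of all tested), 35.5% of the control calls and 33.3% of the BACHD calls. All 11 changed in the same direction in both genotypes. The share of all genes with the same direction was not counted.

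Leaving aside Foxp2, the 10 genes called in both genotypes included 7 that fell and 3 that rose. Col4a2, a chain of basement membrane collagen, was at 139, 167, 126 and 154 CPM in Con+Con and at 60.5, 56.6, 59 and 63.9 CPM in Con+Foxp2 mice. In BACHD mice it was at 162, 157, 192 and 165 CPM under the control virus and at 82.3, 69.7, 78.1 and 49.1 CPM under the Foxp2 virus. The groups did not overlap in either genotype, the falls were 2.44-fold and 2.42-fold, and the interaction was 0.01 (SE 0.20, 95% interval -0.40 to 0.43). Its value lay on either side of 0 in different settings.

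Pde2a, a phosphodiesterase that breaks down cyclic AMP and cyclic GMP, fell from 761 ± 173 to 413 ± 49.9 CPM in control mice and from 889 ± 130 to 435 ± 38 CPM in BACHD mice (interaction -0.15, -0.55 to 0.25). Dgki, a diacylglycerol kinase, fell 1.66-fold and 1.70-fold (-0.04, -0.43 to 0.35), and Cacna2d3, an accessory subunit of calcium channels, 1.85-fold and 1.74-fold (0.09, -0.41 to 0.59). Map2k5, the kinase that activates ERK5, fell 2.08-fold and 1.95-fold (0.10, -0.48 to 0.67), and Dnttip1, part of a histone deacetylase assembly, 2.57-fold and 3.10-fold (-0.27, -0.97 to 0.43). All of these intervals include 0, and the narrowest, those of Dgki and Pde2a, reached no further from 0 than -0.55.

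Rab3b, which encodes a small GTPase of vesicle release, rose from 27.1, 34.1, 27 and 26.8 CPM to 52.8, 74, 51.4 and 50.2 CPM in control mice, and from 32, 28.1, 29.9 and 29.3 CPM to 42.8, 62.8, 55.7 and 68.3 CPM in BACHD mice. An antisense transcript also overlaps Rab3b, so its counts are uncertain. The rises were 1.98-fold and 1.93-fold without overlap, and the interaction was -0.04 (-0.56 to 0.48). Jun, an AP-1 transcription factor, rose 1.94-fold and 2.23-fold (0.20, -0.38 to 0.79). Pou4f1, a POU factor of sensory neurons and the habenula, had 9 reads in Con+Con and 126 in Con+Foxp2, and 0 in BACHD+Con and 99 in BACHD+Foxp2. Its levels under the Foxp2 virus overlapped between genotypes, at 4.97 to 19.3 CPM in control and 5.16 to 16.3 CPM in BACHD mice, and its fitted interaction rests on a group at 0 reads.

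**Figure D2:**
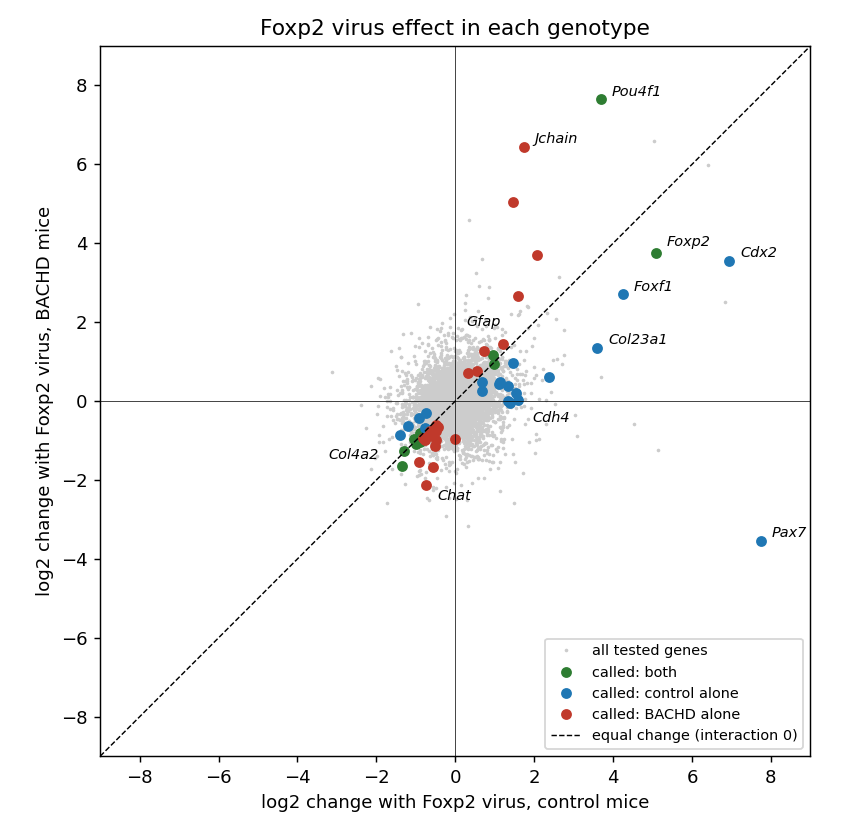
Log2 change with the Foxp2 virus in control mice (horizontal) and in BACHD mice (vertical) for all 13563 tested genes, with the genes called in both genotypes or in 1 of them in colour. Points on the dashed line have an interaction of 0; Col23a1 and Cdh4 lie below it, Col4a2 on it, and the low-count genes Pax7, Cdx2, Pou4f1 and Jchain have fitted values that depend on groups with few or no reads.

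A virus call in 1 genotype alone was no test of a difference. Of the 20 genes called in control mice alone, 12 had an interaction with an unadjusted p under 0.05, beside 3.8% of all genes, and 17 had a change of the same sign in BACHD mice. Of the 22 called in BACHD mice alone, 5 had such a p, and 22 had a change of the same sign in control mice. These sets were chosen from the same libraries, so nothing is read from the counts.

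Parn, the poly(A)-specific ribonuclease, and Col4a1, the partner chain of Col4a2, were both called in control mice alone. Parn was at 82 and 35.5 CPM in control and at 75.9 and 49.2 CPM in BACHD mice, without overlap in either (interaction 0.57, 0.06 to 1.09). Col4a1 was at 91 and 34.7 CPM in control and at 92.6 and 50.6 CPM in BACHD mice, where BACHD+Foxp2 mice spread from 30.4 to 78.9 CPM (0.52, -0.12 to 1.16). The exons of Col4a1 and Col4a2 overlap on opposite strands, so reads there cannot be assigned without strand.

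Of the genes called in BACHD mice alone, Chat, the enzyme that makes acetylcholine, was at 16.8, 21.1, 26.5 and 11.6 CPM in BACHD+Con and at 4.39, 2.62, 4.47 and 5.74 CPM in BACHD+Foxp2 mice. In control mice it was at 12.1, 16.1, 10.6 and 19.7 CPM and at 5.47, 13.7, 6.96 and 8.74 CPM. The BACHD groups did not overlap and the control groups did (interaction -1.40, -2.45 to -0.35, adjusted p = 1). Hook2, a linker of cargo to microtubule motors, fell 3.17-fold in BACHD mice and was 1.48-fold lower in control mice (-1.10, -1.84 to -0.35). Gfap, the intermediate filament of astrocytes, rose from 207 ± 71.9 to 501 ± 123 CPM in BACHD mice and was at 258 ± 29.2 and 427 ± 83.9 CPM in control mice, with no overlap in either genotype (0.54, -0.04 to 1.12). Mtmr14, a phosphoinositide phosphatase, had an interaction of -0.63 (-1.32 to 0.06), Evl, an actin regulator whose exons overlap Degs2, -0.28 (-0.67 to 0.11), and Sidt2, a lysosomal membrane protein, -0.23 (-0.73 to 0.27).

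**Figure D3:**
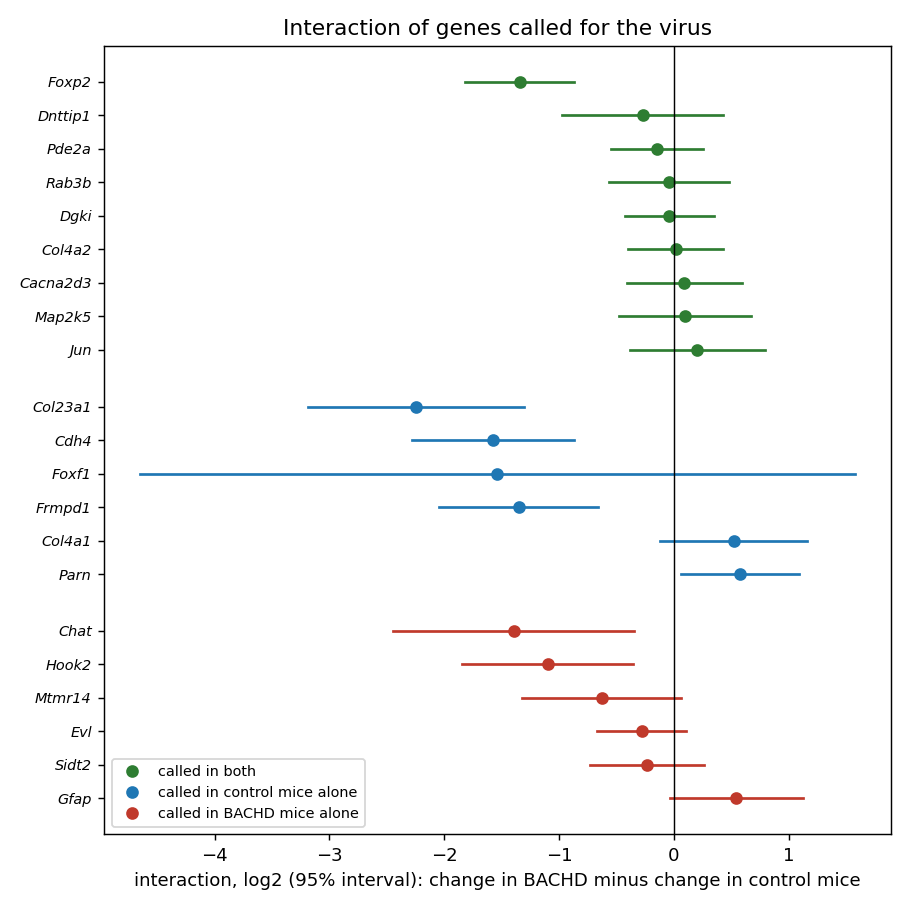
Interaction with its 95% interval (log2) for named genes called for the virus in both genotypes, in control mice alone or in BACHD mice alone, leaving out, among others, Pax7 and Pou4f1, which have a group at 0 reads. The intervals shown for genes called in both, Foxp2 aside, include 0, those of Foxp2, Col23a1, Cdh4, Frmpd1, Chat and Hook2 lie below 0, and that of Parn lies above 0.

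Read the other way, the interaction compares the effect of the BACHD genotype under each virus. Under the control virus 2 genes were called (0.0147%), Htt and Msantd1, both higher in BACHD mice. Under the Foxp2 virus 8 were called (0.059%), Htt higher (0.00737%) and 7 lower (0.0516%). Htt was at 286 and 607 CPM in Con+Con and BACHD+Con and at 256 and 553 CPM in Con+Foxp2 and BACHD+Foxp2, and its interaction was 0.03 (-0.33 to 0.38). Whether reads of the human huntingtin gene that BACHD mice carry were counted as Htt was not tested. Msantd1, whose gene span overlaps that of Htt, was at 2.62 and 29.6 CPM under the control virus and at 3.91 and 23.4 CPM under the Foxp2 virus (-0.88, -2.46 to 0.70). The lower genes included Foxp2, Col23a1, Pax7, Cdh4, Frmpd1 and Elfn1, whose values are given above.

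Gene lists are described by their counts, since no list had a member called for the interaction by the edgeR test. Foxp2 and Pax7, which DESeq2 called, are members of lists. In bulk tissue, fewer cells of a type and less RNA per cell cannot be told apart. Of the 20 pan striatal projection neuron genes, 18 had an interaction above 0 (90%, against 51.3% of all genes), with a median of 0.14 beside 0.01 over all genes. The median change with the virus was -0.47 in control and -0.26 in BACHD mice. The median BACHD against control difference was 0.02 under the control virus and 0.14 under the Foxp2 virus. The cortical list had virus medians of 0.33 and 0.57, and the 3 libraries lowest in cortical markers, Con+Con mouse 4 and BACHD+Con mice 2 and 3, were among the 4 highest in striatal ones, at 14595, 12634 and 14193 CPM. The part of cortical markers in the striatal values was not tested. Scn4b, a sodium channel subunit of these neurons, was at 499 and 305 CPM in control mice without overlap and at 388 and 351 CPM in BACHD mice (interaction 0.56, 0.02 to 1.10, adjusted p = 1), and Rasgrp2, an activator of Rap1, at 124 and 80.5 and at 101 and 94.1 CPM (0.52, -0.16 to 1.20). The 4 genes of this list with the narrowest intervals were Arpp21 (0.15, -0.16 to 0.46), Itpr1, the inositol trisphosphate receptor (0.13, -0.19 to 0.44), Arpp19 (0.23, -0.14 to 0.59) and Bcl11b, a zinc finger factor of these neurons (0.08, -0.33 to 0.48). The summed level of the list spread from 9046 to 15473 CPM in Con+Con mice and from 8744 to 9945 CPM in Con+Foxp2 mice. Without Con+Con mouse 2 its median interaction was -0.002, and over all settings it ran from -0.002 to 0.28.

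The 28 genes known to fall in the striatum of Huntington disease mice share many members with the last list, and 27 were above 0 (96.4%), with a median of 0.15. Their median change with the virus was -0.42 in control and -0.16 in BACHD mice. Their median BACHD against control difference was -0.04 under the control virus and 0.13 under the Foxp2 virus. Without Con+Con mouse 2 the median interaction was 0.004. Adora2a, the adenosine receptor of the indirect pathway, was at 102 and 58.6 CPM in control and at 83.3 and 73 CPM in BACHD mice (0.61, -0.25 to 1.47), and Rgs4, a brake on G protein signalling, at 364 and 283 and at 305 and 294 CPM (0.31, -0.06 to 0.68). The median was 0.04 for direct pathway markers (5 of 9 above 0) and 0.12 for indirect pathway markers (5 of 7), and over the settings these medians ran from -0.11 to 0.36 and from -0.01 to 0.28. Among them Drd1, the D1 dopamine receptor, was at 0.29 (-0.32 to 0.90), Tac1, the precursor of substance P, at 0.40 (-0.37 to 1.17) and Penk, the precursor of enkephalin, at 0.15 (-0.48 to 0.79).

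Interneuron genes gave no common direction. The 8 tested cholinergic genes had 4 above 0 (median 0.14, from -0.14 to 0.43 over the settings), with virus medians of -1.14 in control and -0.98 in BACHD mice. Their summed level was 66.2 to 135 CPM in Con+Con, 43.4 to 83.8 CPM in Con+Foxp2, 72.1 to 138 CPM in BACHD+Con and 37.5 to 80.5 CPM in BACHD+Foxp2. Slc17a8, a vesicular glutamate transporter of cholinergic neurons, was at 13.2 and 3.24 CPM in control and at 12.5 and 4.83 CPM in BACHD mice (0.61, -0.79 to 2.02). Of the 14 GABAergic genes 9 were above 0 (median 0.16, from -0.05 to 0.27 over the settings). Calb2, which encodes calretinin, was at 14.2 and 33.4 CPM in control and 17.7 and 9.01 CPM in BACHD mice with all groups overlapping (-2.18, -4.09 to -0.27, adjusted p = 1). Pvalb, which encodes parvalbumin, was at 1.03 (-0.12 to 2.19), Nos1 at 0.31 (-0.15 to 0.76) and Gad2 at 0.04 (-0.60 to 0.68). The cortical list had a median of 0.28 (13 of 16 above 0) that ran from -0.49 to 0.69 over the settings. The lowest median was the one without Con+Con mouse 3, the library highest in these markers by their sum. Not all members followed the sum: Lmo3 had its lowest level of all libraries in that mouse, at 49.5 CPM. Rorb was at 0.48 (-0.09 to 1.06), Lamp5 at -0.49 (-1.11 to 0.12) and Sv2b at 0.17 (-0.71 to 1.05).

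Of the 16 oligodendrocyte and myelin genes, 15 were above 0 (93.8%), with a median interaction of 0.38, beside a virus median of -0.33 in control and 0.08 in BACHD mice. Ugt8a, the enzyme that makes the myelin lipid galactosylceramide, was at 93.6 and 63.8 CPM in control mice without overlap and at 64 and 76 CPM in BACHD mice (0.80, 0.13 to 1.47, adjusted p = 1). Mbp, a structural protein of myelin, had an interaction of 0.43 (-0.17 to 1.03), and Ermn one of 0.52 (-0.06 to 1.09). The summed level was 6230 to 9651 CPM in Con+Con, 4362 to 6749 in Con+Foxp2, 5270 to 7162 in BACHD+Con and 3041 to 8405 in BACHD+Foxp2 mice. These ranges overlap, and BACHD+Foxp2 mouse 2 was the lowest of all 16 libraries. Over the settings the median stayed between 0.25 and 0.61, and it was 0.61 without that mouse. Of the 7 precursor genes 6 were above 0 (median 0.24, from 0.12 without BACHD+Con mouse 4 to 0.44 without Con+Con mouse 2), with Enpp6, a lipid phosphodiesterase of newly forming oligodendrocytes, at 1.07 (-0.17 to 2.31).

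**Figure D4:**
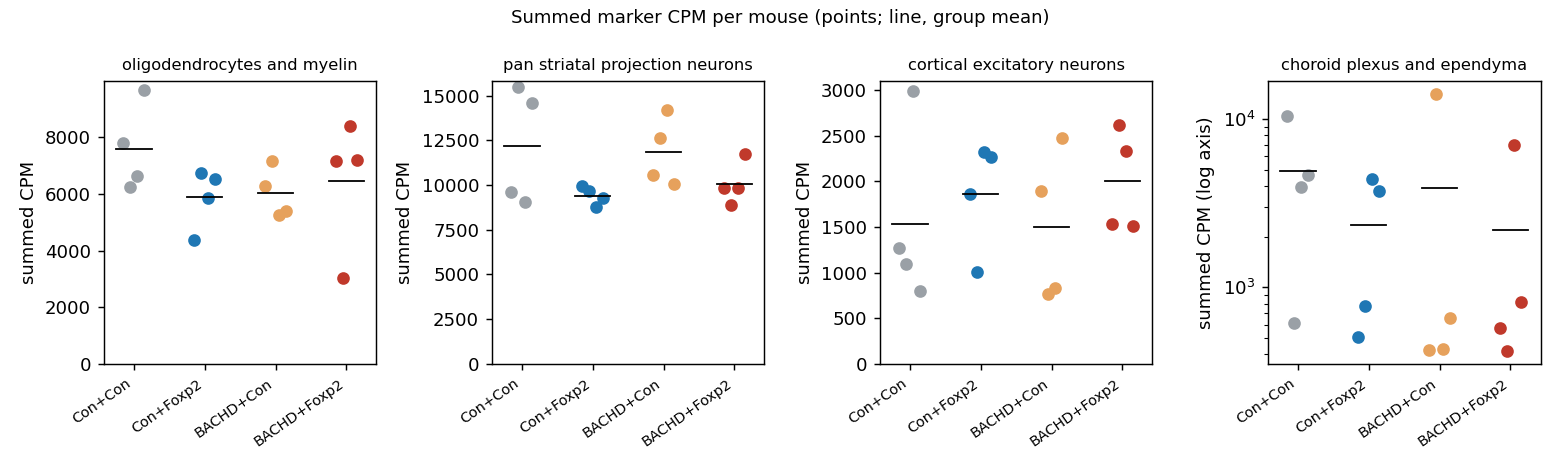
Summed CPM of 4 marker lists in each of the 16 mice by group, with the group mean as a line. The choroid plexus axis is logarithmic. Myelin markers spread from 3041 to 8405 CPM within BACHD+Foxp2, and choroid plexus markers from 422.7 to 14064 CPM within BACHD+Con.

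Astrocyte genes had a median of 0.00 (7 of 14 above 0). Kcnj10, the potassium channel that clears potassium from the synaptic space, was at 261 and 415 CPM in control mice without overlap and at 249 and 297 CPM in BACHD mice (-0.42, -0.80 to -0.03, adjusted p = 1). Aldoc was at -0.23 (-0.50 to 0.04), and Slc1a2, the main glutamate transporter, at 0.07 (-0.15 to 0.30). Of the 10 tested reactive astrocyte genes 7 were above 0 (median 0.16, from 0.06 without BACHD+Con mouse 4 to 0.45 without BACHD+Con mouse 2), with the complement component C3 at 0.90 (-0.29 to 2.10) and Serpina3n at 0.47 (-0.16 to 1.11).

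Microglial genes had 6 of 16 above 0 (median -0.13, from -0.17 to 0.05 over the settings), and the summed level was higher under the Foxp2 virus in both genotypes: 348 to 411 CPM in Con+Con, 418 to 490 in Con+Foxp2, 323 to 378 in BACHD+Con and 416 to 468 in BACHD+Foxp2. Neither pair of groups overlapped. Cx3cr1, the fractalkine receptor, was at 39.9 and 37.9 CPM in control and 27.4 and 39.8 CPM in BACHD mice (0.61, 0.08 to 1.14, adjusted p = 1). Ctss, a lysosomal protease, was above its control-virus group in both genotypes (0.23, -0.25 to 0.71). Laptm5, a lysosomal membrane protein, was 1 of the 10 genes below 0, on means of 14.5 and 20 CPM in control and 20.3 and 21.7 CPM in BACHD mice (-0.38, -1.34 to 0.58). Of 10 peripheral myeloid genes only 3 were tested, among them Lyz2 (1.07, -0.30 to 2.44) and Cd163 (0.91, -0.65 to 2.48). Of the lymphocyte and red blood cell lists, each had 1 tested member. For antibody-forming cells it was Jchain, the joining chain of antibodies, at 3.62 and 12.2 CPM in control and 0.0964 and 11.2 CPM in BACHD mice, and it was called for the virus in BACHD mice (adjusted p of the interaction = 1).

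Interferon-stimulated genes had 7 of 10 above 0 (median 0.22), with virus medians of 0.50 in control and 0.71 in BACHD mice. Stat2, the interferon signal transducer, was at 27.5 and 26.3 CPM in control and 20.8 and 35.3 CPM in BACHD mice (0.83, 0.21 to 1.45, adjusted p = 1). Gbp2, an interferon-induced GTPase, was at 1.27 (0.04 to 2.50), and Ifit3 at -1.98 (-4.28 to 0.32). The median was 0.81 without the 3 libraries lowest in cortical markers and 0.03 without BACHD+Con mouse 4. Antigen presentation genes had a median of 0.14 (6 of 11), beside virus medians of 0.81 and 0.89, and it was -0.21 without BACHD+Con mouse 1.

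Vessel and matrix genes had no call for the interaction, while Col4a1 and Col4a2 were called for the virus, as given above. Collagen IV and basement membrane genes had 11 of 14 above 0 (median 0.25, from 0.15 without BACHD+Foxp2 mouse 3 to 0.41 without BACHD+Con mouse 2), with Nid1, the linker protein nidogen, at 0.68 (-0.24 to 1.60) and Lama2, a laminin chain, at 0.51 (-0.18 to 1.20). Endothelial and mural cell genes had 9 of 14 above 0 (64.3%), and their median of 0.24 was 0.06 without BACHD+Foxp2 mouse 4. Among them were Abcc9 of pericytes at 0.73 (-0.06 to 1.52), the angiopoietin receptor Tek at 0.65 (-0.08 to 1.37) and Flt1 at 0.31 (-0.11 to 0.73). Choroid plexus and ependymal genes had 10 of 12 above 0, but their median of 0.12 ran from -1.04 to 2.53 over the settings. Without BACHD+Con mouse 2 it was 2.25 and without BACHD+Foxp2 mouse 3 it was -1.04. Ttr, the transthyretin of choroid plexus, had an interval of -3.38 to 3.75.

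The beta protocadherins, clustered adhesion molecules that give neurons a surface identity, had 7 of 21 above 0 (33.3%). Their median was -0.26, beside virus medians of 0.63 in control and 0.55 in BACHD mice. It was -0.34 without Con+Foxp2 mouse 4, -0.15 without BACHD+Foxp2 mouse 3, and -0.34 to -0.09 over all settings. Pcdhb3 was at 8.75 and 22.1 CPM in control mice without overlap and at 14.5 and 18.9 CPM in BACHD mice (-0.95, -1.72 to -0.19, adjusted p = 1). Pcdhb20 was at -0.83 (-1.51 to -0.15) and Pcdhb22 at 0.82 (-0.30 to 1.94). These genes are close copies of each other, so the split of their reads is uncertain. Immediate early genes had 6 of 18 above 0, and their median of -0.13 was -0.31 without Con+Foxp2 mouse 4 and -0.02 without Con+Con mouse 1. They include Fos at 8.41 and 17.4 CPM in control and 14 and 13.5 CPM in BACHD mice (-1.10, -2.18 to -0.01, adjusted p = 1) and Dusp1 at -0.79 (-1.71 to 0.13). The p53 and DNA damage list had 3 of 16 above 0 (median -0.17, from -0.38 without BACHD+Foxp2 mouse 4 to -0.07 without Con+Foxp2 mouse 3).

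Among genes of excitability and signalling, potassium channels had 21 of 25 above 0 (84%, median 0.16). This median was 0.09 to 0.25 with 1 mouse left out and 0.02 to 0.25 over all settings. Kcnk2 was at 0.34 (-0.13 to 0.80), Kcnd2 at 0.31 (-0.12 to 0.74) and Kcna1 at 0.20 (-0.11 to 0.50). Phosphodiesterases had a median of 0.09 (11 of 17; -0.08 without BACHD+Foxp2 mouse 4). Pde9a, which is specific for cyclic GMP, was at 25.6 and 32.9 CPM in control and 37.2 and 26.4 CPM in BACHD mice (-0.85, -1.49 to -0.21, adjusted p = 1), and Pde3b at -0.84 (-1.73 to 0.05). Glutamate and GABA receptors had a median of -0.01 (12 of 25) and synaptic vesicle genes of 0.06 (18 of 25; -0.03 without Con+Con mouse 3), with Syt2, a calcium sensor of fast release, at 0.53 (-0.10 to 1.16).

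The cell maintenance lists had medians within 0.10 of 0. They were -0.01 for respiratory chain complex I (9 of 21 above 0), -0.08 for cytosolic ribosomal proteins (7 of 20), 0.08 for heat shock proteins and chaperones (15 of 22), -0.02 for the proteasome (12 of 26), -0.06 for cholesterol synthesis (6 of 20), -0.01 for the unfolded protein response (6 of 13) and 0.10 for huntingtin interactors (9 of 17). With 1 mouse left out they lay between -0.16 and 0.14, and over all settings between -0.22 (unfolded protein response) and 0.14. Members with an unadjusted p under 0.05 included Ndufa4 (-0.62, -1.05 to -0.19) and Ndufs7 (-0.69, -1.21 to -0.17) of complex I, Rps21 (-0.63, -1.20 to -0.06) of the ribosome, Hspb8 (1.49, 0.27 to 2.72), a chaperone of selective autophagy, and Ebp (1.06, 0.00 to 2.11), a sterol isomerase, all with an adjusted p of 1. Lists that name FOXP2 itself gave little: 5 of 8 targets named in earlier work were tested, with a median of -0.06 (-0.11 to 0.09 with 1 mouse left out) and 2 above 0, among them Vldlr (0.11, -0.42 to 0.64) and Met (1.04, -1.17 to 3.25). Foxp factors and partners had a median of 0.04 (4 of 8, -0.05 to 0.19 with 1 mouse left out, -0.08 to 0.19 over all settings). Polycomb complex genes had 0.15 (12 of 19, 0.03 without BACHD+Foxp2 mouse 4). Of 35 developmental genes silenced by Polycomb only 11 passed the filter on low counts. Their median was 0.05 (6 of 11, -0.63 with mouse 4 of Con+Con left out, -0.62 with its mouse 2 left out). Some of the 11, such as Pax7 and Pou4f1, had most of their reads in mice given the Foxp2 virus. The median and the count describe the tested members only, and no direction of the whole list is read from them. In the last list the homeobox gene Cdx2 was at 0 and 5.05 CPM in control and 0.248 and 3.47 CPM in BACHD mice, without overlap in either genotype (adjusted p = 1), and Tbx3 was at -1.52 (-3.17 to 0.13).

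**Figure D5:**
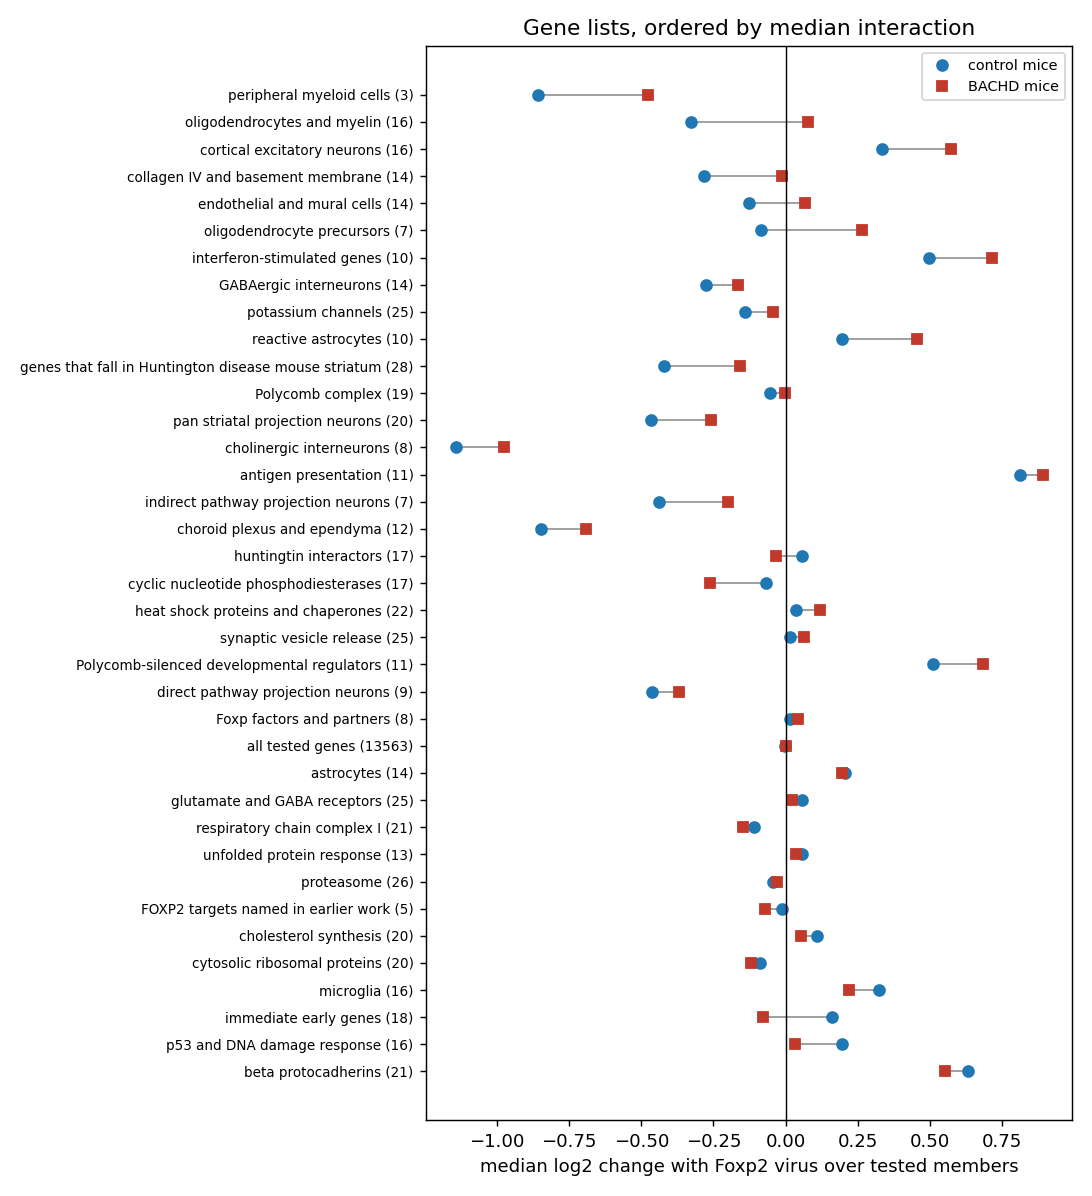
Median log2 change with the Foxp2 virus over the tested members of each list (number in brackets), circles for control and squares for BACHD mice, ordered by the median interaction. The squares lie right of the circles for myelin, collagen IV and projection neuron lists and left of them for immediate early, p53 and beta protocadherin genes; all tested genes lie at 0.00 in both.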

How the data were processed

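RNA from mouse striatum was extracted and sequenced on Illumina instruments after SMARTer amplification, per the labels' protocols. The deposited values are counts of reads per gene, 1 file per mouse. STAR 2.4.0, HTSeq and DESeq2 and the build mm10 are listed, with no roles, in the submitters' processing notes. No source used here says whether strand was used. The authors' 3 comparison tables were not used.

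Rows that name no gene were removed. They were reads outside any gene (38.67% to 43.42% of listed reads), ambiguous reads (0.2271% to 0.2599%) and reads not uniquely placed (33.8% to 37.21%). Genes were filtered with filterByExpr by group, scaled by TMM and fitted over all 16 libraries, 1 mean per group and 12 residual degrees of freedom, with edgeR 4.0.16 in R 4.3.3. The quasi-likelihood test and Benjamini-Hochberg adjustment were used, with a threshold of 0.05. DESeq2 1.42.0 and voom of limma 3.58.1 were alternatives, beside other scalings, filters, left-out mice and marker covariates (the last, and leaving out 3 libraries, were chosen after seeing the data). Libraries held 2660395 to 3669748 gene reads, no pair of libraries was identical, and the labels do not state separate litters or days, so p-values measure the spread between these mice.

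Genes named are Foxp2, Foxp1, Foxp4 and Htt, the 10 uncalled genes of lowest p in each direction, genes called for the virus in both genotypes, the 6 of lowest p called in 1 genotype alone, genes called for genotype under the control virus, up to 4 members of lowest p in each list with the most abundant member of cell type lists, and up to 6 genes with narrow intervals. Some genes that this rule names are not reported here. Members and lists were chosen with earlier results of these data known. Promoters come from RefSeq on GRCm38.p6, and gene positions and overlaps from GENCODE M21 on GRCm38.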

Additional observations from a re-analysis of the deposited data

Results flagged for a closer look

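In groups of 4 mice, a mouse was singled out when its gap to the nearest other mouse was past Dixon's 95% critical value as a share of the group's range. Of 128 groups checked, 6 met this, and chance gives about 1 in 20. Elfn1 was at 106 CPM in Con+Foxp2 mouse 2, against 56.7 to 61 CPM in the other 3 mice. Pqbp1 was at 51 CPM in Con+Foxp2 mouse 2, against 70.8 to 74.6 CPM. St18 was at 47.2 CPM in Con+Con mouse 4, against 51 to 51.8 CPM. Prrg4 was at 0.644 CPM in Con+Foxp2 mouse 1, against 0.273 to 0.331 CPM, all below the level of 3 reads. Summed choroid plexus and ependymal markers were at 14100 CPM in BACHD+Con mouse 2, against 423 to 654 CPM, and at 6990 CPM in BACHD+Foxp2 mouse 3, against 418 to 815 CPM.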

How the results depend on the processing

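Foxp2 was called for the interaction in 6 of 29 alternative settings and Pax7 in 2 of 29, since 1 setting each removes them (Foxp2 taken out before scaling, and a mean of at least 10 CPM). Col23a1 was called in 4 of 30 and Cdh4 in 1 of 30. Without a filter on low counts 3 genes were called (868 at an unadjusted p under 0.05, Foxp2 at -1.34), with DESeq2 4 (Foxp2 at -1.33), and with the cortical marker sum as a covariate 2 (Foxp2 at -1.29). Leaving out 1 mouse gave 0 to 1 call, 442 to 686 genes at an unadjusted p under 0.05, and -1.47 to -1.19 for Foxp2. The call was Foxp2 without Con+Con mouse 2 (-1.47), without BACHD+Con mouse 1 (-1.46) and without BACHD+Foxp2 mouse 4 (-1.45), and Col23a1 without Con+Con mouse 3 (-2.66). Values near 0 changed sign, and the cause was not tested. Col4a2 was at -0.0079 with library totals, -0.027 with voom and -0.0052 with voom and quality weights. Msantd1 was at 0.23 with voom and 0.14 with quality weights, Htt at -0.025 and Sv2b at -0.036 with quality weights, and Sv2b at -0.024 with the cortical covariate. Without the 3 libraries lowest in cortical markers, Foxp1 was at 0.036 and Jun at -0.18, and Rab3b was at 0.0050 with the choroid plexus covariate. With 1 mouse left out, the ranges were -0.22 to 0.025 for Foxp1, -0.048 to 0.32 for Foxp4, -0.081 to 0.17 for Htt, -0.038 to 0.24 for Cacna2d3, -0.073 to 0.15 for Col4a2, -0.14 to 0.057 for Dgki, -0.059 to 0.30 for Map2k5, -0.14 to 0.11 for Rab3b, -0.024 to 0.19 for Bcl11b, -0.12 to 0.33 for Penk, -0.10 to 0.22 for Gad2, -0.21 to 0.39 for Sv2b, -2.33 to 4.24 for Ttr and -0.12 to 0.26 for Vldlr. With the replicate number as a block, 0 genes were called, 436 had an unadjusted p under 0.05, and Foxp2 was at -1.33. Same-numbered mice did not deviate together (24 pairs, correlations -0.168 to 0.102, 1 of 16 libraries closest to its own number). A small effect shared by same-numbered mice might not show in this check, so pairing by number is not excluded. The difference on the linear scale was planned for called genes and had none to use. Genes below 10 CPM have the widest intervals.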
